A study of Mus musculus with 3 samples.

Results

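The Hox genes encode homeodomain transcription factors, and the count tables held 39 of them among 32293 features, which are described here in cells of the aged mouse thymus. All features named Hox with a cluster letter and a number were taken, without antisense or host transcripts. HoxA gave 11 members on chromosome 6, HoxB 10 on chromosome 11, HoxC 9 on chromosome 15 and HoxD 9 on chromosome 2. Over the cell classes used below, 37 members had at least 1 unique molecular identifier (UMI), while Hoxa11 and Hoxd13 had 0.

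In the embryo, the order of Hox genes along a cluster follows the order of their domains from head to tail, so that low numbers are used in front and high numbers behind. Many adult connective tissue and vessel cells keep the set of Hox genes of the place they came from, and for this reason the genes are spoken of as a positional code. The thymic epithelium arises from the endoderm of the third pharyngeal pouch, a region of anterior Hox genes, and Hoxa3 is needed for a thymus to form. Genes of paralogue groups 1 to 3 are called anterior below, 4 to 8 central and 9 to 13 posterior.

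CD45- stromal cells of untreated C57BL/6 mice at 20 months of age were profiled by droplet single-cell RNA sequencing in 3 libraries. Foxn1Lin female and Foxn1Lin male carried a Foxn1 lineage trace, in which Cre expressed from Foxn1, a gene of thymic epithelial cells (TEC), turns on a tdTomato reporter, and WT male carried no trace. Each was the only library of its group and was made from pooled thymi, so genotype, sex and library cannot be told apart, and the protocol in the labels speaks of female mice for every sample. Barcodes with at least 2 UMIs of Epcam were taken as TEC, of Pecam1 as endothelial cells (EC), of Pdgfra as fibroblasts (FB) and of Upk3b as mesothelial cells (MEC), and those with at least 5 UMIs of Rgs5 and Acta2 together as mural cells (vascular smooth muscle cells and pericytes), while barcodes in more than 1 class were dropped.

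Values are given in the order Foxn1Lin female, Foxn1Lin male, WT male throughout. The libraries held 53366016, 33386621 and 61258534 UMIs in 8616, 3583 and 5478 barcodes. TEC numbered 467, 430 and 878, EC 1883, 823 and 862, FB 1852, 864 and 1709, mural cells 427, 449 and 353, and MEC 340 and 36 in Foxn1Lin female and WT male, with 0 in Foxn1Lin male. Other markers of each class were highest in that class for 6 of 7 TEC genes (not Krt19), 8 of 8 EC genes, 7 of 7 FB genes, 5 of 5 mural genes and 5 of 5 MEC genes, as means over libraries. The WT male library is labelled CD45-PECAM1+ in its cell type field, yet its EC were fewer than its FB. Between 3 and 14 barcode sequences were shared by a pair of libraries. Levels are counts per 1000000 UMIs of a class (CPM). A UMI stands for 1 captured transcript end, so CPM was not divided by gene length, and levels are compared between classes rather than between genes. Intervals are exact 95% Poisson intervals and cover counting error only.

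Hox transcripts were found in all 5 classes, at the lowest summed level in TEC. Summed over the 39 members, EC had 239, 346 and 278 CPM, mural cells 219.9, 249 and 182, FB 165, 213 and 217 and TEC 74.6, 70.0 and 80.9. MEC had 147 and 200.3 in the libraries that held them. The means were 288 ± 54.2 in EC, 217 ± 33.3 in mural cells, 199 ± 29.1 in FB and 75.2 ± 5.47 in TEC (SD, n = 3 libraries), and 174 ± 37.8 in MEC (SD, n = 2). TEC lay below every other class in each library. EC lay above mural cells and above FB in each library, though the range of mural cells overlapped those of EC and FB across libraries. The counting intervals in Foxn1Lin female were 229 to 249 for EC, 159 to 172 for FB and 68.1 to 81.6 for TEC.

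The share of barcodes with a Hox UMI depends on depth, and TEC were the deepest class, with a median of 10837, 12384 and 15993 UMIs against 3854, 7355 and 6954 in EC. When each barcode was thinned to 2000 UMIs, 12.9, 13.7 and 13.1% of TEC held a Hox UMI, against 35.0, 46.0 and 39% of EC, 28.2, 34.5 and 32.5% of FB, 33.8, 40.6 and 32.1% of mural cells and 24.8 and 30.6% of MEC. Without thinning the shares were 41.8, 45.6 and 53.4% in TEC, 54.5, 80.0 and 70.8% in EC and 66.3, 80.1 and 75.8% in FB. Thinning left out 16, 20 and 29 TEC and 301, 30 and 45 EC. Empty droplets, which hold free RNA, had 119, 171 and 187 Hox CPM, above the TEC level in every library and above the 182 of mural cells in WT male.

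The classes drew on different clusters. HoxA was at 27.6, 35.5 and 41.7 CPM in TEC, 94.7, 88 and 72.8 in EC, 68.2, 57.8 and 63.9 in FB and 70.0, 79.1 and 67.6 in mural cells. HoxB was at 8.91, 10.2 and 13.3 CPM in TEC and at 93.1, 159 and 107, 53.8, 81.1 and 71.0 and 90.8, 137 and 81.3 in EC, FB and mural cells. HoxD was at 5.53, 6.67 and 2.80 CPM in TEC, 45.5, 98.6 and 98.2 in EC, 24.7, 67.7 and 71.7 in FB and 39.4, 31.7 and 28.2 in mural cells. MEC had 104 and 112 CPM of HoxA but 2.62 and 0 of HoxD. HoxC was at 32.6, 17.5 and 23.1 CPM in TEC, 5.34, 0 and 0.401 in EC, 18.5, 6.72 and 10.8 in FB and 19.7, 1.09 and 4.98 in mural cells. MEC had 12.8 and 26.4 CPM of HoxC, above TEC in WT male, and empty droplets 15.8, 12.0 and 23.2, level with TEC in WT male. In EC of Foxn1Lin female, 1 barcode that also held 18 UMIs of Aire carried 33 of the 50 HoxC UMIs, and EC barcodes without Aire had 1.55, 0 and 0.413 CPM of HoxC.

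**Figure D1:**
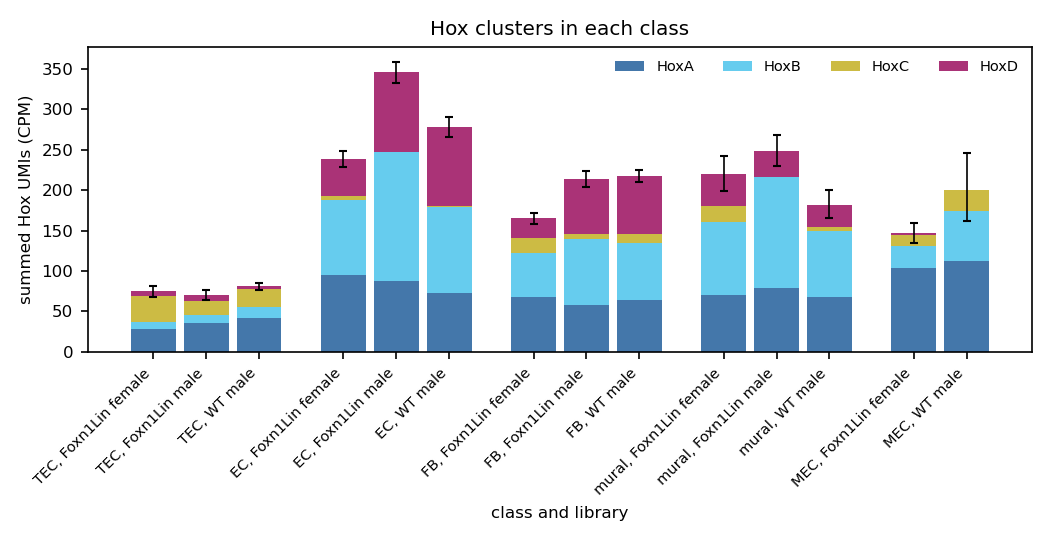
Summed CPM of the HoxA, HoxB, HoxC and HoxD members, stacked, for each class and library, with the exact 95% Poisson interval of the whole sum. TEC bars end between 70.0 and 80.9 CPM and EC bars between 239 and 346, and HoxC makes up a visible part of the TEC bars while HoxB and HoxD make up most of the EC bars.

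Of the 37 members with UMIs, 14 had their highest mean level in TEC, 12 in EC, 5 in MEC, 5 in mural cells and 1 in FB. The 14 led by TEC included most of the posterior genes, yet 7 of them had 6 UMIs or fewer in TEC. The 12 members followed in full, chosen by their highest class mean, were Hoxa5, Hoxb4, Hoxb2, Hoxd8, Hoxa3, Hoxa7, Hoxb3, Hoxd4, Hoxb5, Hoxa2, Hoxd9 and Hoxc4. Of these, Hoxd9 alone is posterior, and it lies beside Hoxd8 in HoxD. Several members overlap others on the same strand, namely Hoxa3 with Hoxa4, Hoxa5 and Hoxa6, Hoxd3 with Hoxd4, and Hoxc5 with Hoxc6, Hoxc8, Hoxc9 and Hoxc10. Reads in introns were counted, so UMIs in such overlaps cannot be split with certainty. Positions below are on GRCm38.

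**Figure D2:**
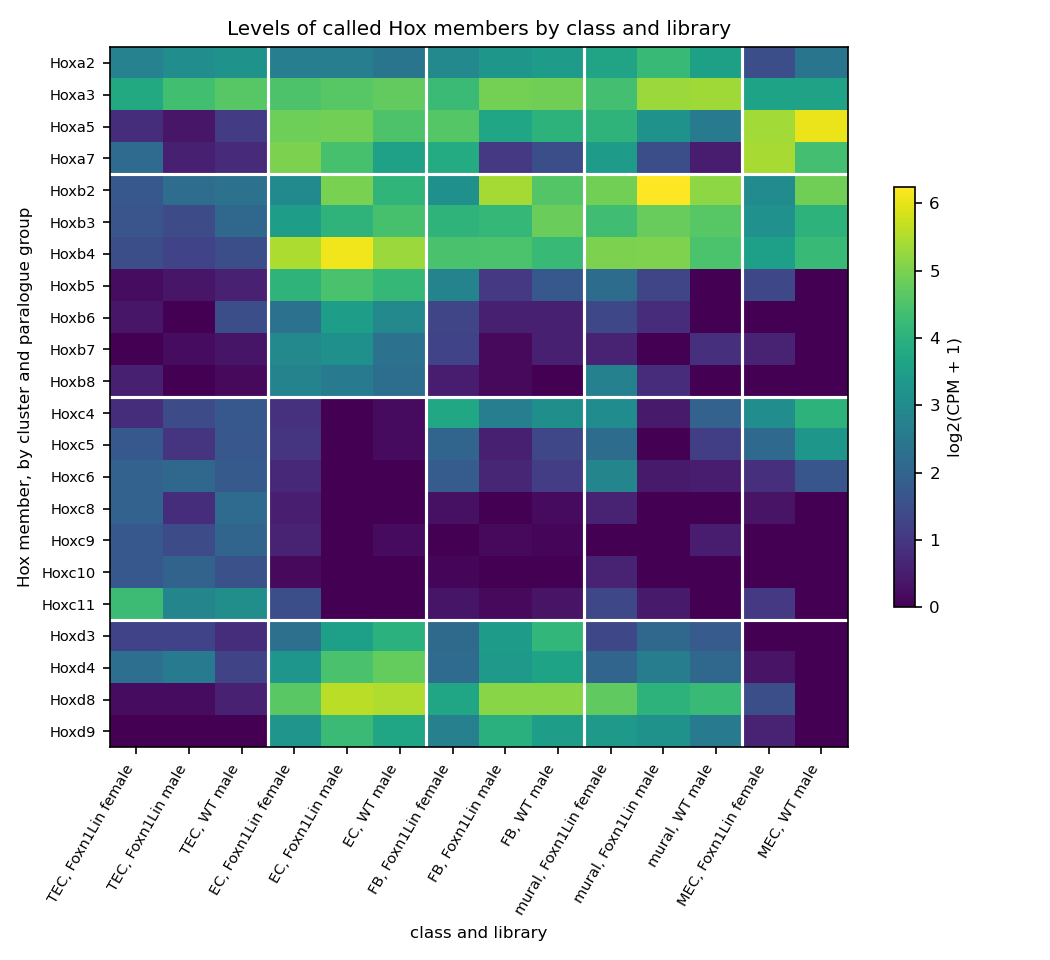
Heat map of log2(CPM + 1) for the 22 members called in at least 1 comparison below (rows, by cluster and paralogue group) in each class and library (columns). The rows from Hoxb4 to Hoxb8 are brighter in EC than in TEC of each library, whereas the rows from Hoxc8 to Hoxc11 are brighter in TEC than in the other classes.

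FB were first compared with TEC, the epithelial class, to ask which members separate connective tissue from epithelium. Counts summed per library and class were tested with edgeR, with the library as a block. Values in parentheses after a comparison are the log2 fold change ± SE and the P adjusted over all genes tested by the Benjamini-Hochberg method, called at 0.05. Of 24 members that passed the low-count filter, 12 were higher in FB, where 24.9% of all 17598 genes tested were called higher, and 4 were lower, where 30.1% were. The median log2 fold change was 1.17 over these members and −0.09 over all genes tested, and was the same with Hoxd9 set to the bound below. Under the alternatives the median of the members ran from 0.16 with no low-count filter to 1.68 with only the compared classes. It was 0.61 without Foxn1Lin female.

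Among the members higher in FB, Hoxd9 and Hoxd8 differed most. Hoxd9 (chr2:74697727-74700208) had 5.59, 14.7 and 10.1 CPM in FB and 0 UMIs among 31176971 in TEC, where the FB level of each library would give 314, so that FB were at least 105-fold higher, using a floor of 3 counts over all TEC (edgeR adjusted P = 5.99e-06). Hoxd8 (chr2:74704615-74707933) had 12.0, 33.8 and 34.0 CPM in FB against 0.154, 0.155 and 0.494 in TEC (6.56 ± 0.54, edgeR adjusted P = 3.5e-06). FB and TEC did not overlap for either gene. Hoxd3 had 3.50, 9.74 and 16.4 CPM in FB against 1.38, 1.40 and 0.768 in TEC (3.32 ± 0.51, edgeR adjusted P = 0.000358). Hoxd4 had 3.57, 9.27 and 11.2 CPM in FB and 3.84, 4.81 and 1.43 in TEC (1.56 ± 0.49, edgeR adjusted P = 0.0189). The Hoxd4 call was lost without trimmed-mean scaling (edgeR adjusted P = 0.0508), with only the compared classes (0.0786), without Foxn1Lin male (0.0914) and without WT male (0.101). For Hoxd4 the groups overlapped, since FB of Foxn1Lin female lay below TEC of the same library, and Hoxd4 lies within the span of Hoxd3.

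Of the anterior and central HoxB members, 4 were higher in FB. Hoxb4 (chr11:96318267-96321638), known for expanding blood stem cells, had 21.0, 21.1 and 17.9 CPM in FB against 1.84, 1.40 and 1.81 in TEC (3.82 ± 0.25, edgeR adjusted P = 8.54e-07). Its TEC level lay under that of empty droplets, which was 12.5, 15.5 and 12.1 CPM. Hoxb3 had 15.7, 16.8 and 26.9 CPM against 2.15, 1.71 and 3.29 (3.35 ± 0.23, edgeR adjusted P = 1.37e-06). Hoxb2 had 7.83, 41.5 and 22.9 CPM against 2.30, 3.72 and 4.01 (2.94 ± 0.31, edgeR adjusted P = 1.82e-05). FB were above TEC in each library for these genes. Hoxb5 had 5.94, 1.04 and 2.30 CPM in FB and 0.154, 0.310 and 0.494 in TEC (3.15 ± 0.74, edgeR adjusted P = 0.00401). The remaining higher members were Hoxa3, Hoxa5, Hoxa7 and Hoxc4. The Hoxa7 call was lost without Foxn1Lin female (edgeR adjusted P = 0.0767), without WT male (0.0718) and with no library block (0.1000), and the Hoxc4 call without WT male (0.0504).

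HoxA split within its own cluster. Hoxa5 (chr6:52201754-52204587), which is required in lung and airway mesenchyme, had 23.2, 11.8 and 15.5 CPM in FB against 0.768, 0.310 and 1.15 in TEC (4.57 ± 0.42, edgeR adjusted P = 7.29e-06). Hoxa3 (chr6:52169062-52213336), the member needed for thymus formation, had 18.1, 29.8 and 28.5 CPM in FB and 12.7, 19.4 and 23.4 in TEC (0.79 ± 0.20, edgeR adjusted P = 0.00538). The Hoxa3 call was lost without trimmed-mean scaling (edgeR adjusted P = 0.0501) and without Foxn1Lin male (0.0642). FB were above TEC in each library, but the ranges of FB and TEC overlapped across libraries. Hoxa2 had 6.71, 8.81 and 9.92 CPM in FB and 5.84, 7.29 and 8.29 in TEC and did not pass the threshold.

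The 4 members that were lower in FB were neighbours in HoxC. Hoxc11 (chr15:102954427-102957708) had 18.6, 6.21 and 7.46 CPM in TEC and 0.280, 0.116 and 0.263 in FB (−5.20 ± 0.76, edgeR adjusted P = 0.000185). Hoxc10, a gene of the lumbar region in the embryo, had 2.30, 2.95 and 1.92 CPM in TEC and 1, 0 and 0 UMIs in FB, which is 1.14% (0.0289% to 6.36%) of the 87.6 that TEC levels would give (edgeR adjusted P = 0.000408). Hoxc9 had 2.30, 1.71 and 3.07 CPM in TEC and 2 UMIs in FB, 2.12% (0.256% to 7.65%) of the 94.4 at TEC levels (edgeR adjusted P = 0.00152). Hoxc8 had 2.92, 0.776 and 3.51 CPM in TEC and 0.210, 0 and 0.131 in FB (−4.03 ± 0.75, edgeR adjusted P = 0.000968). TEC were higher in each library for all 4 genes, though the Hoxc9 call was lost without WT male (edgeR adjusted P = 0.0596). Of the members below the low-count filter, Hoxa9 had 20 UMIs in TEC and 0 in FB, where TEC levels would give 32.8, so it was at least 10.9-fold higher in TEC. Hoxb9 had 9, 16 and 25 UMIs in TEC and 1 in FB. Empty droplets had 4.78, 5.85 and 7.17 CPM of Hoxc11, close to TEC of both male libraries and below TEC of Foxn1Lin female. The part of free RNA in these levels was not tested. Without trimmed-mean scaling, 2899 genes were called higher and 7175 lower in FB, and the Hox count was 10 higher and 4 lower.

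The HoxC transcripts of TEC lay in few barcodes. The 10 TEC barcodes with the most Hoxc8 to Hoxc11 UMIs held 52.9%, 50.7% and 54.6% of them, and the fullest barcode had 22, 6 and 30. After these values had been seen, TEC were split by Aire, the regulator that lets medullary TEC transcribe genes of many other tissues, into 155, 88 and 220 barcodes with an Aire UMI and 312, 342 and 658 without. The split is a description with no test. Hoxc8 to Hoxc11 summed to 57.7, 34.5 and 45.7 CPM with Aire and 6.48, 3.57 and 3.79 without. Hoxc11 itself was at 42.4, 20.8 and 22.3 CPM with Aire, where its intervals were 34.7 to 51.3, 14.5 to 28.9 and 18.4 to 26.7, and at 3.74, 1.05 and 1.39 without. Barcodes with a UMI of any of the 4 genes made up 25.2%, 29.5% and 23.2% of TEC with Aire and 6.09%, 3.22% and 3.95% of those without. After thinning to 2000 UMIs these shares were 13%, 10.6% and 9.68% and 1.35%, 0.308% and 0.633%. Median depth was 13425, 17639 and 20458 UMIs with Aire and 9366, 11617 and 13996 without.

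Other members followed the same split. Hoxd4 was at 8.01, 14.9 and 3.59 CPM in TEC with Aire and 1.25, 1.26 and 0.542 without, and Hoxc6 at 5.61, 9.51 and 6.23 and 1.25, 1.05 and 0.851. In contrast, Hoxa2 to Hoxa4 summed to 11.6, 3.57 and 17.7 CPM with Aire and 26.4, 43.3 and 46.1 without, the opposite order. Hoxd8 and Hoxd9, which separated FB from TEC, stayed at 0 to 0.619 CPM on both sides. The summed level of 10 hematopoietic markers also moved with the split, at 1339, 1528 and 1110 CPM with Aire and 489, 129 and 177 without, and its part was not tested. Parathyroid markers reached 2881, 5173 and 2749 CPM in TEC and 111, 40.9 and 31.0 without the 6, 3 and 1 barcodes with at least 10 UMIs of Pth, the parathyroid hormone gene. Without those barcodes the summed Hox level of TEC was 75.1, 70.3 and 81.5 CPM.

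**Figure D3:**
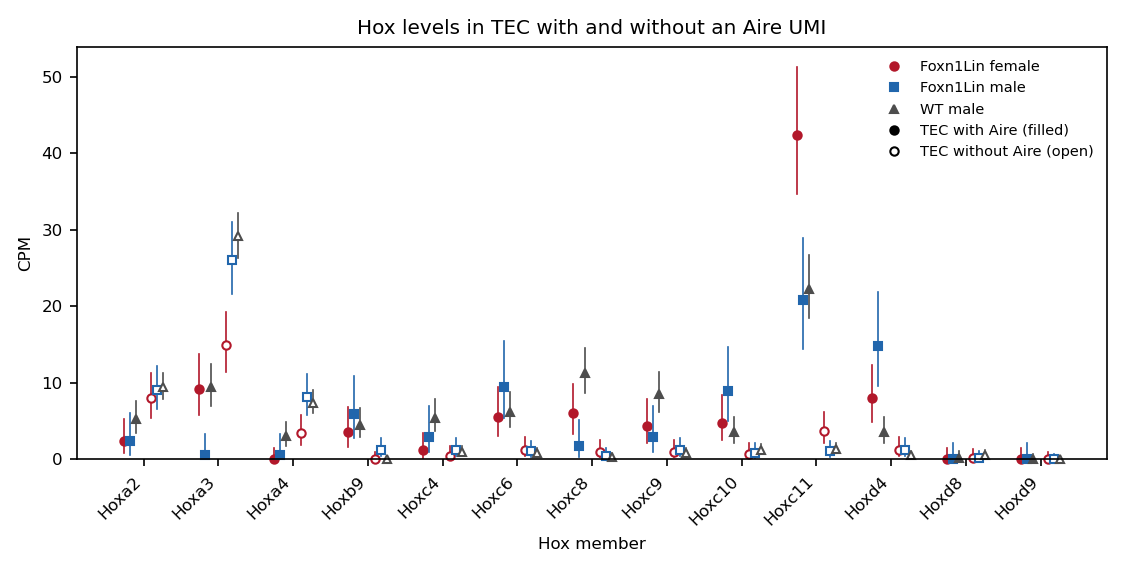
CPM of 13 members in TEC with an Aire UMI (filled) and without (open), by library, with exact 95% Poisson intervals. Hoxc11 with Aire lies at 42.4, 20.8 and 22.3 CPM, above the open symbols in each library, and Hoxa3 shows the opposite order.

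FB were then compared with EC, which asked whether connective tissue and vessel lining carry the same members. Of 24 members, 4 were higher in FB (19.9% of all genes tested were) and 7 lower (19.7%), and the median log2 fold change was −0.52 over the members and −0.04 over all genes. Under the alternatives the median of the members ran from −0.77 without WT male to −0.004 without barcodes that held Aire outside TEC or Pth in TEC. The members lower in FB were Hoxd4, Hoxa7 and the run from Hoxb4 to Hoxb8. Hoxb5 to Hoxb8 summed to 32.3, 43.9 and 31.4 CPM in EC and 9.23, 1.74 and 3.22 in FB.

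Hoxb8 (chr11:96281905-96285315) had 5.87, 4.99 and 3.75 CPM in EC and 0.419, 0.116 and 0 in FB (−5.15 ± 0.87, edgeR adjusted P = 0.000975). Hoxb7 had 6.62, 7.75 and 4.15 CPM in EC and 1.40, 0.116 and 0.460 in FB (−3.32 ± 0.69, edgeR adjusted P = 0.00265), and Hoxb5 had 15.7, 20.9 and 16.9 and 5.94, 1.04 and 2.30 (−2.75 ± 0.57, edgeR adjusted P = 0.00266). Hoxb6 had 4.06, 10.2 and 6.69 CPM in EC and 1.47, 0.464 and 0.460 in FB (−3.14 ± 0.91, edgeR adjusted P = 0.0196). No FB library reached an EC library for Hoxb5 to Hoxb8. Hoxb4 had 43.2, 68.5 and 38.7 CPM in EC against 21.0, 21.1 and 17.9 in FB (−1.34 ± 0.20, edgeR adjusted P = 0.000291). Hoxa7 had 31.2, 20.4 and 11.0 CPM in EC and 13.4, 1.04 and 1.84 in FB (−2.53 ± 0.48, edgeR adjusted P = 0.00151), and its groups overlapped, since FB of Foxn1Lin female lay above EC of WT male. Hoxd4 had 8.76, 20.9 and 26.3 CPM in EC and 3.57, 9.27 and 11.2 in FB (−1.27 ± 0.44, edgeR adjusted P = 0.0382).

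Hoxa2 and 3 neighbouring HoxC members were higher in FB. Hoxc4 (chr15:103018934-103036852) had 12.4, 5.33 and 7.62 CPM in FB and 0.855, 0 and 0.134 in EC (4.58 ± 0.79, edgeR adjusted P = 0.000779). Hoxc5 had 3.08, 0.464 and 1.51 CPM in FB and 0.961, 0 and 0.134 in EC (2.18 ± 0.75, edgeR adjusted P = 0.0387), and Hoxc6 had 2.52, 0.580 and 1.18 and 0.641, 0 and 0 (2.72 ± 0.94, edgeR adjusted P = 0.0389). Hoxa2 had 6.71, 8.81 and 9.92 CPM in FB and 5.34, 5.38 and 4.41 in EC (0.68 ± 0.24, edgeR adjusted P = 0.0408). The 7 other FB markers summed to 807, 70.6 and 105 CPM in EC, highest in Foxn1Lin female, and their part was not tested. Without Foxn1Lin male the count of 11 members was 5, and Hoxa2, Hoxb5, Hoxb6, Hoxc5, Hoxc6 and Hoxd4 were lost (edgeR adjusted P of 0.0572 to 0.197). Without WT male it was 7, and Hoxa2, Hoxb6, Hoxc5 and Hoxc6 were lost (0.0623 to 0.204). With no library block it was 6, and Hoxa2, Hoxa7, Hoxc5, Hoxc6 and Hoxd4 were lost (0.0849 to 0.168). Hoxa2 was also lost with stricter class limits (edgeR adjusted P = 0.126), no low-count filter (0.0858) and only the compared classes (0.0613). Hoxc5 was lost with doublets removed (0.0533) and looser class limits (0.0516), and Hoxd4 with barcodes of at least 2000 UMIs.

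Mural cells were compared with EC and FB as the other cells of the vessel wall. Against EC, 4 of 24 members were higher in mural cells (18.8% of all genes) and 8 were lower (18.5%), with a median log2 fold change of −0.48 against −0.02 over all genes. Hoxb2 (chr11:96350525-96354012), a gene of the hindbrain, had 29.0, 74.7 and 35.3 CPM in mural cells and 6.84, 30.9 and 16.1 in EC (1.43 ± 0.28, edgeR adjusted P = 0.00212). Hoxa2 (chr6:52162417-52164831), which sets the identity of the second pharyngeal arch, had 11.4, 17.9 and 10.8 CPM in mural cells and 5.34, 5.38 and 4.41 in EC (1.32 ± 0.26, edgeR adjusted P = 0.00188), without overlap. Hoxc4 had 7.26, 0.364 and 2.91 CPM in mural cells (3.10 ± 0.92, edgeR adjusted P = 0.0211) and Hoxc6 6.22, 0.364 and 0.415 (3.06 ± 1.05, edgeR adjusted P = 0.0398), both highest in Foxn1Lin female. The 7 FB markers summed to 940.2, 1160 and 976 CPM in mural cells, and their part was not tested.

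Lower in mural cells than in EC were Hoxd3, Hoxd4, Hoxa5, Hoxa7 and Hoxb4 to Hoxb7. Hoxb5 had 3.63, 1.46 and 0 CPM in mural cells (−3.67 ± 0.73, edgeR adjusted P = 0.0022), below each EC library. Hoxb7 had 1, 0 and 2 UMIs in mural cells, which is 6.82% (1.41% to 19.9%) of the 44.0 that EC levels would give (edgeR adjusted P = 0.0075). Hoxa5 had 15.6, 8.02 and 4.98 CPM in mural cells and 28.0, 29.0 and 21.8 in EC (−1.60 ± 0.36, edgeR adjusted P = 0.00511). Hoxa7 had 9.85, 1.82 and 0.415 CPM in mural cells (−2.92 ± 0.58, edgeR adjusted P = 0.00233) and Hoxd4 had 3.11, 5.10 and 3.32 (−2.29 ± 0.54, edgeR adjusted P = 0.00657). Hoxd3, Hoxb4 and Hoxb6 had log2 fold changes of −1.97, −0.88 and −3.34. Without Foxn1Lin male the count of 12 was 4, and Hoxb2, Hoxb5, Hoxa7 and Hoxc4 stood (edgeR adjusted P of 0.0541 to 0.172 for the others). Without WT male it was 5, and Hoxa2, Hoxa5, Hoxb2, Hoxb5 and Hoxd4 stood (0.0501 to 0.169 for the others). Hoxc6 was also lost without Foxn1Lin female (0.130), and Hoxa7, Hoxb2 and Hoxc6 with no library block (0.0814 to 0.156).

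Against FB, few members separated mural cells. Hoxd3 was higher in FB (1.90 ± 0.53, edgeR adjusted P = 0.0235), as 1 of 24 members against 14.1% of all genes, with 3.50, 9.74 and 16.4 CPM in FB and 1.56, 3.28 and 2.49 in mural cells. Hoxb2 (−1.08 ± 0.27, edgeR adjusted P = 0.0129) and Hoxb8 (−3.25 ± 1.02, edgeR adjusted P = 0.0375) were lower in FB, as 2 members against 14.3% of all genes. Hoxb8 had 5.70, 0.729 and 0 CPM in mural cells and thus rested on Foxn1Lin female. The median log2 fold change was −0.29 over the members and 0.01 over all genes. Under the alternatives the median of the members ran from −0.31 without trimmed-mean scaling to 0.35 with only the compared classes, so its sign was not stable. None of these calls stood without WT male or with no library block. The edgeR count was then 0, with 4 and 5 members at an unadjusted P under 0.05, and DESeq2 called 4 with all libraries and the block. Without Foxn1Lin male the count was 1, that of Hoxb2. The Hoxb8 call was also lost without Foxn1Lin female (edgeR adjusted P = 0.333) and, with all libraries, under looser class limits (0.103). Within mural cells, 286, 347 and 289 vascular smooth muscle cells (Myh11 of at least 2 UMIs) were set against 92, 50 and 27 pericytes (Rgs5 of at least 2 and no Myh11). No member passed in edgeR or DESeq2 among the 6 tested, 0 had an unadjusted edgeR P under 0.05, and 8.05% of all genes were called higher and 6.39% lower. Without Foxn1Lin male, 2 of 9 members were called lower in smooth muscle cells, where 4.73% of all genes were.

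MEC, which line the capsule, had a Hox profile of HoxA members with little HoxD. Pi16 FB, defined below, leaned the same way, with 73.0, 107 and 94.6 CPM of HoxA and 8.67, 10.8 and 12.8 of HoxD. The comparison here is with all FB together. Of 24 members, 2 were higher in MEC than in FB (9.71% of all genes were) and 7 were lower (11.8%). The median log2 fold change was −0.94 over the members and −0.14 over all genes, and was the same with Hoxd3 at its bound. Hoxa5 had 40.6 and 66.0 CPM in MEC of Foxn1Lin female and WT male, above its 23.2, 11.8 and 15.5 in FB (1.38 ± 0.38, edgeR adjusted P = 0.0254). Hoxa7 (chr6:52214491-52221854) had 41.7 and 19.8 CPM in MEC (2.39 ± 0.58, edgeR adjusted P = 0.0129). The levels of both genes in MEC exceeded each library of all FB together. Beside Pi16 FB, the ranges of Hoxa5 overlapped across libraries while those of Hoxa7 did not, and MEC were not tested against Pi16 FB. Hoxa6, between them, had 0 and 1 UMIs.

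Hoxd3 had 0 UMIs among 4269480 in MEC, where FB levels would give 20.8, which put it at least 6.93-fold lower than in FB (edgeR adjusted P = 0.00704). Hoxd8 had 1.83 and 0 CPM in MEC (−3.64 ± 0.70, edgeR adjusted P = 0.00351), while Hoxd9 had 2 UMIs, 7.72% (0.935% to 27.9%) of the 25.9 at FB levels (edgeR adjusted P = 0.00496). Hoxd4 had 1 UMI, 5.35% (0.135% to 29.8%) of the 18.7 at FB levels (edgeR adjusted P = 0.0263). These were the 4 tested HoxD members, each called lower. Hoxa2 had 1.83 and 4.40 CPM in MEC (−1.78 ± 0.41, edgeR adjusted P = 0.0101), Hoxa3 11.3 and 11.0 (−0.95 ± 0.28, edgeR adjusted P = 0.0307) and Hoxb3 7.86 and 15.4 (−0.93 ± 0.28, edgeR adjusted P = 0.0377). Hoxc4 had 7.34 and 15.4 CPM in MEC and was not called. The 7 FB markers summed to 9524 and 10298 CPM in MEC, and their part was not tested. MEC came from 2 libraries, the WT male one with 36 barcodes. The count of 9 was 5 without Foxn1Lin female, where Hoxa2, Hoxb3, Hoxd3 and Hoxd4 were lost (edgeR adjusted P of 0.0550 to 0.448), and 2 without WT male, where Hoxd3 and Hoxd4 stood (0.0631 to 0.261 for the others). In both fits 1 MEC library remained, which is assumed to vary like the other classes. Hoxa3, Hoxa5 and Hoxd4 were also lost without Foxn1Lin male (0.0690 to 0.108), which held no MEC. With all libraries kept, Hoxa7 was lost with no library block (edgeR adjusted P = 0.136) and Hoxa5 with stricter class limits (0.0558). Hoxa3 was lost with looser class limits (0.120), no block (0.0509) and only the compared classes (0.0609). Hoxb3 was lost without trimmed-mean scaling (0.0539), with no block (0.112) and with only the compared classes (0.0674).

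FB were also compared by kind. The study marks capsular FB by Pi16 and medullary FB by Ptn. FB with at least 2 UMIs of either gene and fewer of the other were taken as Pi16 FB and Ptn FB. There were 678, 68 and 142 Pi16 FB and 439, 651 and 1205 Ptn FB. Their summed Hox levels overlapped, at 158, 209 and 240.3 CPM in Pi16 FB and 161, 211 and 205 in Ptn FB, but the members behind them differed. Of 16 members that passed the filter, 6 were higher in Pi16 FB (10.9% of 12198 genes were) and 5 lower (13.1%), and the median log2 fold change was 0.07 against −0.04 over all genes.

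Pi16 FB carried central HoxA and HoxC members. Hoxa5 had 26.2, 59.6 and 48.1 CPM in Pi16 FB and 2.10, 2.27 and 3.96 in Ptn FB (3.97 ± 0.27, edgeR adjusted P = 1.02e-06). Hoxc4 had 15.7, 21.7 and 31.5 CPM in Pi16 FB and 2.10, 2.12 and 3.69 in Ptn FB (3.13 ± 0.28, edgeR adjusted P = 8.78e-06). For Hoxa5 and Hoxc4 each Pi16 FB library lay above each Ptn FB library. Hoxa7 had 18, 4.06 and 6.76 CPM in Pi16 FB and 1 UMI in each Ptn FB library, in sum 1.96% (0.403% to 5.72%) of the 153 at Pi16 FB levels (edgeR adjusted P = 3.32e-05). Hoxb5 had 7.0, 8.13 and 6.76 CPM in Pi16 FB and 0.350, 0 and 0.811 in Ptn FB (3.99 ± 0.70, edgeR adjusted P = 0.00133). Hoxc5, which overlaps Hoxc6, had 4.50, 4.06 and 12.0 CPM in Pi16 FB and 2 UMIs in Ptn FB, 1.16% (0.140% to 4.17%) of the 173 at Pi16 FB levels (edgeR adjusted P = 0.000215). Hoxc6 had 3.0, 2.71 and 4.51 CPM in Pi16 FB and 3 UMIs in Ptn FB, 3.92% (0.809% to 11.5%) of the 76.5 at Pi16 FB levels (edgeR adjusted P = 0.00411).

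Ptn FB carried the HoxD members. Hoxd8 had 27.3, 39.8 and 40.4 CPM in Ptn FB and 6.00, 6.77 and 9.76 in Pi16 FB (−2.19 ± 0.22, edgeR adjusted P = 1.89e-05). Hoxd9 had 16.8, 17.7 and 11.7 CPM in Ptn FB and 0.667, 1.35 and 0 in Pi16 FB (−4.63 ± 0.47, edgeR adjusted P = 1.97e-05). Hoxd4 had 12.6, 11.3 and 13.4 CPM in Ptn FB and 0.833, 0 and 0.751 in Pi16 FB (−4.07 ± 0.47, edgeR adjusted P = 5.24e-05). Hoxd3 was at 12.6, 11.8 and 19.8 and 1.17, 2.71 and 2.25 CPM (−3.10 ± 0.37, edgeR adjusted P = 7.87e-05). Each of the 4 was higher in Ptn FB in 3 of 3 libraries, with no overlap. Hoxa2 had 13.6, 8.31 and 10.1 CPM in Ptn FB and 4.50, 5.42 and 5.26 in Pi16 FB (−1.22 ± 0.34, edgeR adjusted P = 0.0205). The Hoxa2 call was lost under DESeq2 (adjusted P = 0.171), with no library block (edgeR adjusted P = 0.0776), with stricter class limits (edgeR adjusted P = 0.0701) and without Foxn1Lin female (edgeR adjusted P = 0.320). Hoxa3, Hoxb2, Hoxb3 and Hoxb4 were present in both kinds and did not pass. The 5 MEC markers summed to 336, 311 and 331 CPM in Pi16 FB and 19.6, 9.22 and 24.9 in Ptn FB, and their part was not tested.

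**Figure D4:**
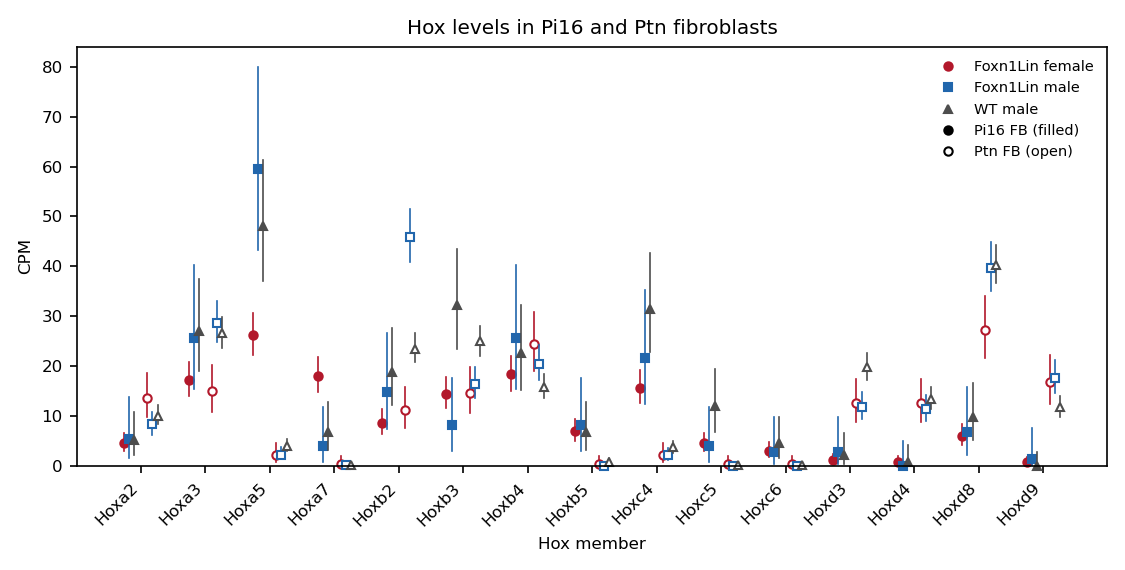
CPM of 15 members in Pi16 FB (filled) and Ptn FB (open), by library, with exact 95% Poisson intervals. Hoxa5 is at 26.2, 59.6 and 48.1 CPM in Pi16 FB, above the open symbols, and Hoxd8 is at 27.3, 39.8 and 40.4 CPM in Ptn FB, above the filled symbols.

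The 250 bases before the RefSeq start of Hoxa5 and Hoxc4, higher in Pi16 FB, and of Hoxd8, Hoxd9 and, less firmly, Hoxa2, higher in Ptn FB, are shown on GRCm38.p6. The sequences were searched on both strands for TGATNNAT, a core bound by Hox proteins with a Pbx partner, and TGACAG, a core bound by Meis proteins. Hoxa2 and Hoxa5 lie on the minus strand and the others on the plus strand, and all sequences run 5′ to 3′ along the gene. Capitals mark a match, or in Hoxa5 and Hoxc4 a run of 12 bases that both share, which was found after the sequences had been read.
Hoxa5: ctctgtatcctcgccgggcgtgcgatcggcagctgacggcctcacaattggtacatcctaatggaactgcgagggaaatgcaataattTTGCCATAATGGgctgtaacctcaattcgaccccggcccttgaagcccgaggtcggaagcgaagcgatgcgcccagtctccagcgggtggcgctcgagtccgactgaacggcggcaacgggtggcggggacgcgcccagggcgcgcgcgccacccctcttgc
Hoxc4: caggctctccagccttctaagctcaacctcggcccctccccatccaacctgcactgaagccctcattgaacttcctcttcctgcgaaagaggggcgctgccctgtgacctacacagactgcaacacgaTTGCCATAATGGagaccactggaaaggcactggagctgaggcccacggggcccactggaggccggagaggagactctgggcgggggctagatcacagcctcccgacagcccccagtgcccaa
Hoxa2: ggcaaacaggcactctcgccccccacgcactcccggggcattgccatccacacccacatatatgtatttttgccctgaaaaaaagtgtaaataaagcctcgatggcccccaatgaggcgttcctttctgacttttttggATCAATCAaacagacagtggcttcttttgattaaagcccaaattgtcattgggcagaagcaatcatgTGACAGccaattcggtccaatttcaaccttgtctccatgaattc
Hoxd8: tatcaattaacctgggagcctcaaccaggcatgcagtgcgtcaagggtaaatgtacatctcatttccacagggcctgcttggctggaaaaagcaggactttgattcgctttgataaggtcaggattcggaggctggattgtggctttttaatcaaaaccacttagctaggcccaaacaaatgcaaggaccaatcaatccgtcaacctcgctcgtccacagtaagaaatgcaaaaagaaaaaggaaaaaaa
Hoxd9: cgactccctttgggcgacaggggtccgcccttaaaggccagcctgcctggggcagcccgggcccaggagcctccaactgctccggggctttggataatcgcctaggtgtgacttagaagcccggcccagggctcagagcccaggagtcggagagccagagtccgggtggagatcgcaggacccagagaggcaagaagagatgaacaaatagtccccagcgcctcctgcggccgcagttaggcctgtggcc

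The windows were chr6:52204588-52204837, chr15:103034145-103034394, chr6:52164832-52165081, chr2:74704365-74704614 and chr2:74697513-74697762 in this order. RefSeq starts differ from the GENCODE spans given above for 2 of these genes, so that the Hoxc4 window lies within the GENCODE span of Hoxc4 and the Hoxd9 window runs past the GENCODE start of Hoxd9. Hoxa2 held 1 match to each core, and the other windows held neither. The Hox-Pbx core was in 7.68% of 32851 promoter windows of this length and in 4 of 24 windows of 22 members, those of Hoxa2, Hoxb1, Hoxb8 and Hoxd11. The Meis core was in 15.9% of all windows and in 2 of the 24, those of Hoxa2 and Hoxa3. The shared run was in 2 of 32851 windows, those of Hoxa5 and Hoxc4. It was taken as their longest common run, so these 2 matches were fixed beforehand. G and C made up 63.6% of the Hoxa5 window and 44.4% of the Hoxd8 window, beside a median of 58.6% over member windows and 52.4% over all. A match is a description of these letters, not a site of binding.

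EC were also described by kind of vessel, with no test, since the split was chosen after their values were seen. EC with at least 2 UMIs of Gja4 and Sox17 together, genes of arteries, numbered 491, 267 and 230, and those with at least 2 of Selp and Ackr1 together, genes of veins, 83, 203 and 206, with barcodes of both left out. Hoxa5 was at 35.5, 43.8 and 28.1 CPM in arterial and 9.95, 15.5 and 17.0 in venous EC. Hoxd4 was at 6.22, 11.4 and 24.7 CPM in arterial and 21.3, 33.7 and 29.1 in venous EC, and Hoxd3 at 2.96, 6.41 and 9.63 and 11.4, 20.1 and 21.8. Hoxb2 was at 5.62, 17.1 and 10.1 and 7.11, 44.5 and 27.6 CPM. Hoxa5 was higher in arterial EC and Hoxd3, Hoxd4 and Hoxb2 in venous EC of each library, while Hoxb4 was at 53.9, 81.9 and 41.0 and 48.3, 66.0 and 37.8 CPM. Venous EC of Foxn1Lin female held 703252 UMIs in all, so the Hoxb2 order there rests on few UMIs. The Hoxd4 levels of WT male also lay close together. HoxC had 0 UMIs in venous EC of each library.

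Between libraries no test was possible, and levels are set side by side. Among members with at least 20 UMIs in a pair of libraries, 12 of 18 differed at least 2-fold between FB of Foxn1Lin female and Foxn1Lin male, where 18.7% of all genes with as many UMIs did. The count was 11 of 19 between Foxn1Lin female and WT male (20.7% of all genes) and 3 of 17 between the male libraries (10.9%). In FB, Hoxa7 had 13.4, 1.04 and 1.84 CPM and Hoxd8 12.0, 33.8 and 34.0, so Foxn1Lin female stood apart from both males in opposite directions for these genes. The makeup of FB differed too, as Foxn1Lin female held 678 Pi16 FB and 439 Ptn FB while WT male held 142 and 1205. Its part was not tested. Within Pi16 FB, 2 of 13, 5 of 13 and 1 of 6 members differed at least 2-fold in the same pairs (16.7%, 12.8% and 10.3% of all genes), and within Ptn FB 1 of 12, 2 of 13 and 0 of 13 (11.6%, 13.1% and 11.8%). The members that differed within Ptn FB were Hoxa4, at 3.50, 4.69 and 7.21 CPM, and Hoxb2, at 11.2, 46.0 and 23.5 CPM. Hoxb2 was also lowest in Foxn1Lin female in EC, at 6.84, 30.9 and 16.1 CPM, and in empty droplets, at 6.80, 28.4 and 17.1 CPM. In EC, 5, 4 and 0 of 17 members differed in these pairs (18.1%, 19.6% and 10% of all genes), and in TEC 5 of 15, 6 of 20 and 5 of 19 (17.7%, 19.5% and 15.2%). In mural cells the counts were 2 of 11, 4 of 11 and 1 of 10 (14%, 18.4% and 11.2%), and in MEC 3 of 8 (16.6%).

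A further 10, 28 and 30 barcodes lay outside the classes, with at least 10 UMIs of Spp1 and fewer than 2 of Epcam, and were chosen with an earlier result of these data known. The reporter was found in 10, 28 and 0 of them. They held 32 Hox UMIs among 582051, or 15.5, 54.3 and 65.4 CPM. HoxA held 24 of these UMIs and HoxB 8, while HoxC and HoxD had 0. The FB level of each library would give 122 Hox UMIs and 37.7 HoxD UMIs, so that the summed level was 0.262 times that of FB (0.179 to 0.370) and HoxD was at least 12.6-fold lower. The TEC levels would give 43.9 Hox UMIs, with a ratio of 0.729 (0.499 to 1.03), and 2.80 HoxD UMIs, under the floor of 3 counts, so the absence of HoxD from these barcodes was not distinguishable from the TEC level at this depth. For HoxC, the levels of all TEC together would give 12.6 UMIs, so these barcodes lay at least 4.21-fold lower than TEC as a whole. Most HoxC UMIs of TEC lay in barcodes with Aire. HoxC was at 70.1, 48.7 and 63.6 CPM in TEC with Aire and 9.22, 6.51 and 6.50 without. No bound was computed against TEC without Aire. With at least 5 UMIs of Spp1 in place of 10, 1 HoxC UMI was found where TEC levels would give 13.9. Hoxa2 to Hoxa4 had 23 UMIs, where FB levels would give 25.0 and TEC levels 19.7.

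**Figure D5:**
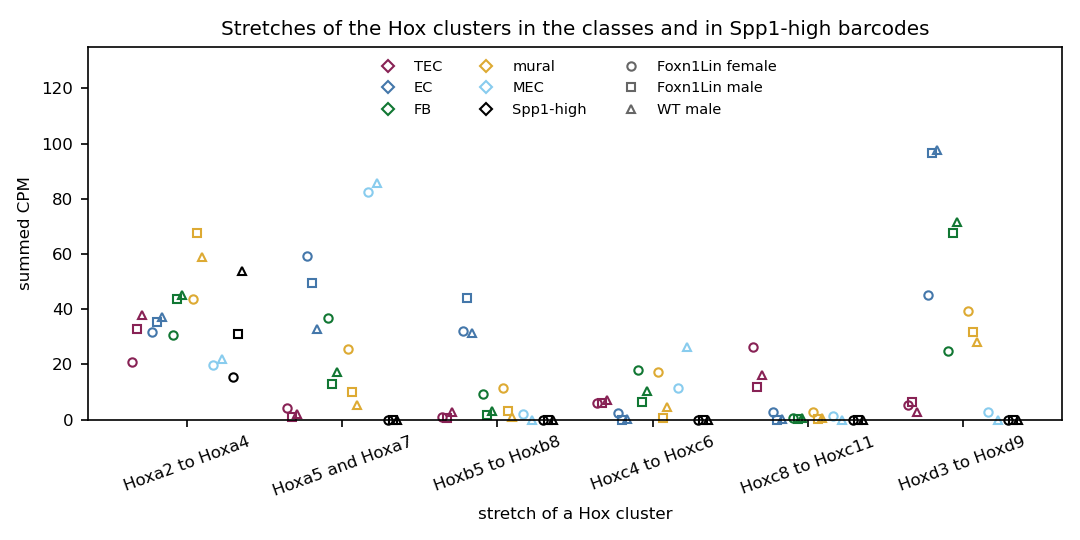
Summed CPM of 6 stretches of neighbouring members by class and in Spp1-high barcodes, with 1 symbol per library. Spp1-high barcodes lie at 15.5, 31.0 and 53.9 CPM for Hoxa2 to Hoxa4, from 1, 8 and 14 UMIs, and at 0 for the other stretches, and TEC stand above the other classes for Hoxc8 to Hoxc11.

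The noncoding genes of the clusters and the partners of Hox proteins were examined as background. Of 11 noncoding features, 7 were tested, and 3 were higher and 0 lower in FB than in TEC, where 24.9% and 30.1% of all genes were, whereas 0 were higher and 3 lower in FB than in EC, where 19.9% and 19.7% were. Halr1, beside the HoxA cluster, had 44.2, 30.7 and 12.3 CPM in EC and 0.769, 0.464 and 0.394 in FB (−5.64 ± 0.39, edgeR adjusted P = 2.28e-06). Hoxd3os1 had 3.64, 10.8 and 6.77 CPM in FB and 0.461, 0.310 and 0.0549 in TEC (5.20 ± 0.57, edgeR adjusted P = 2.58e-05). Hoxaas3 was also higher in FB than in TEC (1.05 ± 0.31, edgeR adjusted P = 0.0127), a call lost without trimmed-mean scaling (0.0702), without Foxn1Lin female (0.139) and without Foxn1Lin male (0.0920). Hoxb3os reached 71.0, 56.5 and 46.5 CPM in mural cells against 8.74, 10.7 and 14.7 in FB. Hotairm1, at the anterior end of HoxA, was at 63.8, 112 and 74.7 CPM in mural cells and 44.2, 55.6 and 52.2 in TEC.

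Of 9 TALE cofactors, homeodomain proteins that bind DNA with Hox proteins, 4 were higher and 2 lower in FB than in TEC (24.9% and 30.1% of all genes), and 5 were higher and 1 lower than in EC (19.9% and 19.7%). Meis1 was at 295 ± 151 CPM in FB, 267 ± 123 in TEC and 25.6 ± 9.19 in EC (SD, n = 3), and its log2 fold change against EC was 3.40 ± 0.36, edgeR adjusted P = 2.96e-05. Meis2 was at 392 ± 75.4 CPM in FB and 52.5 ± 26.1 in EC (2.91 ± 0.36, edgeR adjusted P = 8.27e-05). Pknox2 was at 86.2 ± 26.3 and 4.47 ± 2.60 CPM (4.23 ± 0.40, edgeR adjusted P = 1.39e-05).

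Of 33 regional factors outside the clusters, 25 were tested. In FB, 17 were higher and 6 lower than in TEC (24.9% and 30.1% of all genes), and 18 were higher and 0 lower than in EC (19.9% and 19.7%). Hand2, a factor of the heart and pharyngeal arches, was at 21.8 ± 10.2 CPM in FB and 0.214 ± 0.370 in EC (6.49 ± 1.06, edgeR adjusted P = 0.000548). Alx1 and Barx1 had 0 UMIs in EC and passed at low levels in FB, with means of 2.41 ± 1.42 and 1.43 ± 0.159 CPM, and the Barx1 call was lost without Foxn1Lin male (edgeR adjusted P = 0.0650). Among ParaHox genes, 1 of 6 was tested. This was Cdx1, an intestinal factor, at 63.3 ± 7.13 CPM in TEC and 0.975 ± 0.247 in FB (−5.79 ± 0.54, edgeR adjusted P = 8.14e-06).

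Of 15 genes of retinoic acid, a signal that turns on anterior Hox genes in the embryo, 14 were tested. In FB, 5 were higher and 4 lower than in TEC (24.9% and 30.1% of all genes), and 6 were higher and 2 lower than in EC (19.9% and 19.7%). Aldh1a1, an enzyme that makes retinoic acid, was at 150.2 ± 102 CPM in FB and 3.21 ± 2.14 in EC (5.13 ± 0.79, edgeR adjusted P = 0.000369). Cyp26a1, which breaks it down, was at 6.04 ± 1.57 CPM in TEC and 0.0852 ± 0.0748 in FB (−5.67 ± 0.67, edgeR adjusted P = 4.19e-05), and the receptor Rxrg was at 2.16 ± 1.44 in FB and 0.0794 ± 0.0698 in EC (4.48 ± 0.79, edgeR adjusted P = 0.000933). Of 19 Polycomb and trithorax genes, which hold Hox clusters silent or active, 6 were higher and 3 lower in FB than in TEC (24.9% and 30.1% of all genes), and 2 were higher and 5 lower than in EC (19.9% and 19.7%). Kdm6b, which removes the silencing mark, was higher in FB (1.73 ± 0.21, edgeR adjusted P = 4.43e-05), and Cbx8 and Cbx2, Polycomb subunits, were lower (−1.80 ± 0.35, edgeR adjusted P = 0.00114 and −1.51 ± 0.38, edgeR adjusted P = 0.00597). The Cbx2 call was lost without Foxn1Lin male (edgeR adjusted P = 0.0545) and without WT male (0.127).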

How the data were processed

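Per the file headers and the study's methods, the authors aligned reads with Cell Ranger to a custom mouse GRCm38 (mm10) reference with reporter sequences and deposited UMI counts per gene and barcode for barcodes called as cells, and counts for all barcodes. The submitters' processing notes give Cell Ranger 7.01. Introns were counted, and no library was pooled with another. Empty droplets were low-count barcodes outside the called cells, from the table of all barcodes. The header of that table names another Cell Ranger version, but its counts for the called barcodes were identical to the other table, with 0 differing entries in each library.

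From the deposited counts, classes were set by marker UMIs, and counts were summed per library and class where at least 10 barcodes were present. Sums were tested with edgeR 4.0.16 in R 4.3.3 (filterByExpr, TMM, glmQLFit and glmQLFTest, library as a block, Benjamini-Hochberg over all genes, threshold 0.05), with DESeq2 1.42.0 as an alternative. The classes of a fit came from the same libraries, and the block took out differences that all classes of a library share. P thus rests on how class differences varied between libraries, with dispersion estimated over all classes of the fit. MEC had 2 libraries and the other classes 3. The script was tested on simulated data. No test was made between libraries. Intervals were exact Poisson or Clopper-Pearson intervals from scipy 1.17.1 (Python 3.11.15). No doublet caller was used beyond dropping barcodes of more than 1 class; an alternative removed 3.9% of barcodes by Scrublet score (scanpy 1.11.5), since its own threshold marked 0, 12 and 4 barcodes.

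Gene positions were from GENCODE and promoters from RefSeq. The members and gene lists were chosen with earlier results of these data known. All 39 members were counted, the 12 with the highest class mean and every member called among MEC and FB kinds were described by library, and at most 3 called genes per context list were named by size in FB against TEC or EC.

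1 member is not reported by itself here.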

Additional observations from a re-analysis of the deposited data

Results flagged for a closer look

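In FB and TEC, Hoxb6 went opposite ways in separate libraries, a difference that was not tested. Hoxb6 was at 1.47, 0.464 and 0.460 CPM in FB and 0.307, 0 and 1.81 in TEC, in the order Foxn1Lin female, Foxn1Lin male and WT male. TEC held 2, 0 and 33 of its UMIs, the 33 in 9 barcodes, so that FB were higher in both Foxn1Lin libraries, on few UMIs, and lower in WT male alone. The FB level was 4.78 times that of TEC in Foxn1Lin female (95% interval 1.17 to 42.1) and 0.254 times in WT male (0.0948 to 0.584). Against mural cells, FB had 0.4732 times the Hoxd8 level in Foxn1Lin female (0.343 to 0.664), where Hoxd8 was at 12.0 and 25.4 CPM, but 2.211 times in Foxn1Lin male (1.60 to 3.13) and 1.949 times in WT male (1.42 to 2.74). This difference was not tested either. The share of Pi16 FB, in which Hoxd8 was low, was also highest in Foxn1Lin female, and its part was not tested.

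Barcodes of no class, which entered no comparison, held Hox transcripts at 147.5, 158.5 and 135.8 CPM. Empty droplets had 119, 171 and 187 CPM, so only Foxn1Lin female lay above its own empty droplets.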

How the results depend on the processing

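Of 62 calls of a member in a comparison, 848 values were computed under the alternatives. Of these, 761 kept their direction and their side of the threshold, 87 kept their direction but passed the threshold no longer, and 0 turned around. In FB against TEC, 10 of 16 members were called under every setting, in Pi16 FB against Ptn FB 8 of 11, in FB against EC 4 of 11, in mural cells against EC 1 of 12, and in FB against mural cells and MEC against FB 0 of 3 and 0 of 9. Hoxc8 in FB against TEC, with only the compared classes, and Hoxa7 and Hoxc6 in Pi16 FB against Ptn FB, without Foxn1Lin female, are not counted, since they were not tested under that setting and passed under the others. With no library block the count fell from 11 to 6 in FB against EC and from 3 to 0 in FB against mural cells. Leaving out each library gave 13 to 16 members in FB against TEC, 5 to 13 in FB against EC, 0 to 4 in FB against mural cells, 4 to 15 in mural cells against EC, 2 to 6 in MEC against FB, 9 to 13 in Pi16 FB against Ptn FB and 0 to 2 in smooth muscle cells against pericytes. The cause was not tested, but each such fit held fewer libraries.

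Subtracting the CPM of empty droplets gave mean summed Hox levels of −83.8 in TEC, 129 in EC, 39.7 in FB, 57.9 in mural cells and 20.5 in MEC. The negative TEC value follows from the subtraction, which takes off the full droplet level as if every UMI of a barcode were free RNA. Hoxd9 was at 4.03, 6.14 and 4.97 CPM in empty droplets but had 0 UMIs among 31176971 in TEC, so the subtracted values are no estimate of class levels. Chosen after seeing the data, the members with a 2-fold difference between libraries numbered 12 of 18, 11 of 19 and 3 of 17 in all FB, 2 of 13, 5 of 13 and 1 of 6 in Pi16 FB and 1 of 12, 2 of 13 and 0 of 13 in Ptn FB, where fewer members reached 20 UMIs. Without TMM scaling the median log2 fold change of all genes in FB against TEC was −0.42 in place of −0.09, and 2899 genes were higher and 7175 lower in place of 4382 and 5299. In smooth muscle cells against pericytes it was 553 and 843 in place of 698 and 554. Fitting only the compared classes could not apply to the kinds of FB and mural cells, which were fitted alone. The class comparisons above are paired within libraries by the block. Between the groups of mice, no paired analysis was possible because each group was a single library. Depth limits the rarer members, 13 of which had UMIs but did not pass the low-count filter of the class fit.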
